A study of Mus musculus with 2 samples.

Results

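The light chain variable (V) genes, chosen as every gene whose symbol starts with Igkv (kappa) or Iglv (lambda), were 163 of the 32285 genes counted, 160 of them Igkv and 3 Iglv. They were followed in single eYFP+ cells sorted from the stromovascular fraction (SVF, the non-adipocyte cells) of perigonadal white adipose tissue (gWAT) of male Cyp1a1Cre x R26LSL-eYFP mice. Cre here is driven by Cyp1a1, which the aryl hydrocarbon receptor (AHR) switches on, so a cell that has once expressed Cyp1a1 and its descendants carry eYFP, and neither library samples eYFP-negative cells. One library came from mice kept for 12 weeks on a diet with 10% fat (low-fat diet, LFD) and 1 from mice kept as long on a diet with 60% fat (high-fat diet, HFD), and all mice received FICZ, an AHR ligand, at 10 mg/kg 5 days before collection. Each library pooled 2 mice, whose cells are not told apart here. The study's diets began, where possible, at an age of 6 weeks and at 10 at the latest; the age of these mice is not given more closely in the sources used here. With 1 library per diet there is no test between diets: intervals are 95% intervals that cover counting error only, and diet cannot be told apart from library.

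After the study's limits on cells (500 to 40000 UMIs and under 12.5% mitochondrial UMIs), 10218 LFD and 8545 HFD cells remained, and 27 barcodes occurred in both libraries. UMIs, unique molecular identifiers, count captured RNA molecules. Plasma cell-like cells were those with a UMI for at least 10 of 14 plasma cell markers such as Sdc1, Xbp1 and Tnfrsf17, none of them an immunoglobulin gene. There were 451 in LFD and 1508 in HFD, which was 4.41% (interval 4.02 to 4.83) and 17.6% (16.8 to 18.5) of cells. B-like cells, with at least 5 of 12 B cell markers such as Ms4a1 and Pax5 and outside the plasma cell gate, numbered 1284 and 900. These classes are ranges cut from a marker count, with 57 LFD and 111 HFD cells exactly at the plasma cell limit and 35 and 42 cells 1 marker below it. In the plasma cell-like cells the median number of B cell markers was 3 in both libraries, and at least 50% of the 7 markers of adipose stem and precursor cells (ASPC, such as Pdgfra and Col1a1) were found in 45.9% of LFD and 19.4% of HFD cells.

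An antibody is built from heavy and light chains, and each light chain joins 1 V segment to a short joining segment and a constant region. Developing B cells rearrange kappa genes first and usually turn to lambda only when kappa fails, so a mature cell as a rule makes 1 light chain, a rule called isotypic and allelic exclusion. B-1 cells, an innate-like B cell lineage common in body cavities and their fat, are known for recurrent V pairs, in particular Ighv11-2 with Igkv14-126 and Ighv12-3 with Igkv4-91 in antibodies that bind phosphatidylcholine.

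The germline V exons of the 4 genes on which the results turn are shown from the GENCODE M21 transcripts (GRCm38), read 5′ to 3′ and trimmed at the 5′ end to at most 300 bases. Capitals mark the conserved cysteine codon and the bases after it, which open the third complementarity-determining region. Igkv14-126 lies at chr6:67896345-67896642 on the plus strand and Igkv4-91 at chr6:68768555-68768854 on the minus strand, while Iglv1 lies at chr16:19085017-19085316 on the minus strand and Iglv2 at chr16:19260401-19260700 on the minus strand. All 4 stretches are coding exon sequence.
Igkv14-126: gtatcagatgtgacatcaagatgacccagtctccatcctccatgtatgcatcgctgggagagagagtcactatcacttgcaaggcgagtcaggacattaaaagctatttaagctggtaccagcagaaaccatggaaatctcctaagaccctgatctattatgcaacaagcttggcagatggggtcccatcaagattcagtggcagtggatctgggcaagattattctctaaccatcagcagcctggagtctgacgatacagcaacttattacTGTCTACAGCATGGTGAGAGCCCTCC
Igkv4-91: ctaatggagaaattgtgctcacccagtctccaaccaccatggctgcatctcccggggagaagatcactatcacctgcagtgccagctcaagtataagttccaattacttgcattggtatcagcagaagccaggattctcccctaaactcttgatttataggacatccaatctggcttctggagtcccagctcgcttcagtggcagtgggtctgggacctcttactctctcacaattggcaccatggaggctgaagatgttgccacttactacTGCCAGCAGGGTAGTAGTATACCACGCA
Iglv1: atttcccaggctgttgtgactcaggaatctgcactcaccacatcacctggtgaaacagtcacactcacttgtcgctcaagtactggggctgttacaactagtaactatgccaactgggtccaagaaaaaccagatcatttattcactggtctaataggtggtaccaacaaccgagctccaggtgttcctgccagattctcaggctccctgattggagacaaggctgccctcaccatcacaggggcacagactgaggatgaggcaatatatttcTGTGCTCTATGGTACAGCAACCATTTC
Iglv2: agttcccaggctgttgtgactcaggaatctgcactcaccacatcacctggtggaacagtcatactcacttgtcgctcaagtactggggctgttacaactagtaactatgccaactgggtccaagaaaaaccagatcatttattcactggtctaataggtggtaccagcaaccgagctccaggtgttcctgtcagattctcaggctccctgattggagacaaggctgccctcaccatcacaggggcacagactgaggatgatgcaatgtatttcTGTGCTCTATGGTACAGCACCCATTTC
Iglv1 and Iglv2 differed at 8 of 302 positions, and 76 of the 342 windows of 50 bases in the Iglv1 transcript also occurred in Iglv2. Reads could therefore be split between these genes. Igkv14-126 shared no such window with any other member and Igkv4-91 shared 16 of 309. Of the 163 members, 103 are annotated as V genes and 60 as V pseudogenes, and 102 had at least 1 UMI in the plasma cell-like, B-like or other cells.

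The kit reads the 3′ end of a transcript, where the constant region lies, and V gene UMIs were rare. A plasma cell-like cell held a median of 13 light chain V UMIs in LFD and 17 in HFD, against a median of 2479 and 3024.5 UMIs of Igkc, the kappa constant gene. As a level, the members summed to 1144 CPM (the part of the class's summed UMIs, scaled to 1e6; interval 1120 to 1169) in LFD and 1459 (1444 to 1474) in HFD plasma cell-like cells. In B-like cells the sum was 27.0 CPM (23.4 to 31.0) and 27.9 CPM (23.7 to 32.7). The other cells, 8158 in LFD and 5817 in HFD with at most 1 B cell and 7 plasma cell markers, in which these genes are not expected, held 1.30 CPM in LFD and 3.40 CPM in HFD. Cells with marker counts between these limits were in no class, and the highest light chain V count of an other cell was 20 UMIs in LFD and 7 in HFD. In plasma cell-like cells 97.8% and 98.5% of cells had a light chain V UMI at a median depth of 14168 and 14532 UMIs, against 1.19% and 4.26% of the other cells at 11192 and 14004 UMIs. When each cell was thinned to 2000 UMIs the expected share was 75.9% and 81.3% in plasma cell-like cells, 6.04% and 5.89% in B-like cells, and 0.248% and 0.751% in the others, leaving out shallower cells, of which there were none, 33 and 576 in LFD and none, 21 and 484 in HFD.

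A leading gene was assigned where 1 V gene held at least 50% of 10 or more light chain V UMIs. This gave a leading gene to 267 of 451 LFD plasma cell-like cells (59.2%, interval 54.5 to 63.8) and to 1058 of 1508 HFD cells (70.2%, 67.8 to 72.5). The difference, HFD minus LFD, was 10.96 percentage points (5.80 to 16.2). It was smaller, 5.90 points, at a minimum of 5 V UMIs, 4.22 (-0.540 to 8.71) with a lead of at least 80% and 4.24 with Iglv1 left out. Iglv1, the most used lambda V gene of the mouse, led 221 of 267 assigned LFD cells (82.8%, 77.7 to 87.1) and 904 of 1058 HFD cells (85.4%, 83.2 to 87.5). Igkv14-126 followed with 29 LFD cells (10.9%, 7.40 to 15.2) and 111 HFD cells (10.5%, 8.71 to 12.5), and Igkv4-91 with 3 and 22 cells. The other 12 leading genes of LFD led at most 2 cells each, as did the other 17 of HFD.

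The lambda constant genes did not follow Iglv1. With a constant gene counted as present at 100 UMIs or more, 206 of the 221 LFD cells led by Iglv1 (93.2%, interval 89.1 to 96.2) and 557 of the 904 HFD cells (61.6%, 58.4 to 64.8) held Igkc and no lambda constant gene. Only 7 and 8 of them held a lambda constant gene alone. In cells with Igkc alone the mean was 13.9 Iglv1 UMIs per cell in LFD (407 cells) and 18.6 in HFD (950 cells), and 91.9% and 93.7% of these cells had at least 1. In cells with a lambda constant gene alone the mean was lower, 6.52 in LFD (21 cells) and 4.37 in HFD (43 cells). Among Igkc-only cells in which lambda constants made up under 2% of the light chain constant UMIs, the mean was 14.6 (334 cells) and 19.1 (825 cells).

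**Figure D1:**
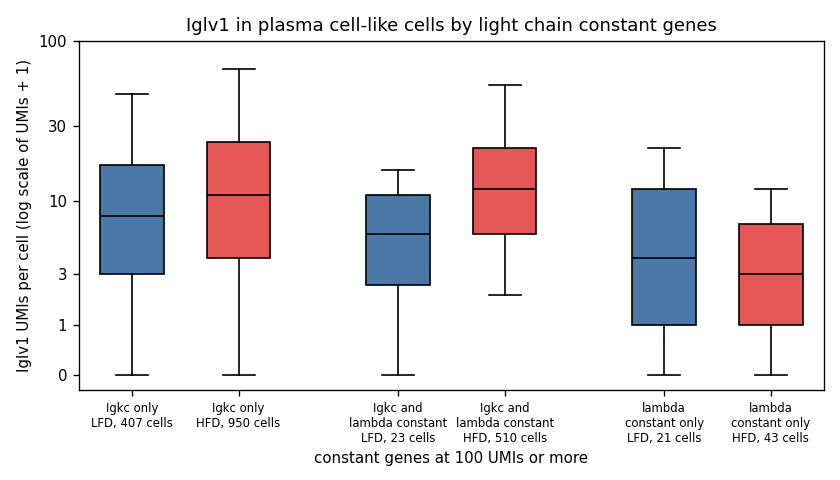
Iglv1 UMIs per plasma cell-like cell (log scale of UMIs + 1) by the light chain constant genes the cell holds at 100 UMIs or more, in LFD and HFD. Boxes span the quartiles with the median as a line and whiskers reach the 5th and 95th percentiles of cells, and the medians are 8 and 11 in Igkc-only cells against 4 and 3 in lambda-only cells.

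Among Igkc-only cells, Iglv1 counts were higher where Igkc counts were higher. Iglv1 stood at 5.21 UMIs per 1000 Igkc UMIs (interval 5.08 to 5.35) in the Igkc-only cells of LFD and at 5.73 (5.64 to 5.81) in those of HFD. Across Igkc-only cells Spearman's rho between Iglv1 and Igkc UMIs was 0.39 in LFD (407 cells) and 0.52 in HFD (950 cells), against 0.59 and 0.54 between summed Igkv and Igkc UMIs; both genes of each pair share a cell's depth. With HFD Igkc-only cells cut by Igkc into 4 groups of like size, from the lowest to the highest the mean Iglv1 count went from 7.05 to 34.5 UMIs per cell and the ratio per 1000 Igkc from 4.32 to 6.42. In LFD the mean went from 5.08 in the lowest group to 19.4 and 18.0 in the 2 highest, and the ratio per 1000 Igkc went from 4.37 through 6.03 and 6.72 to 4.04, so it did not keep rising. Cells with a lambda constant alone held Iglv1 with hardly any Igkc, 137 and 188 Iglv1 UMIs beside 170 and 610 Igkc UMIs. B-like cells had fewer Iglv1 UMIs per 1000 Igkc UMIs, 0.941 (0.679 to 1.27) in LFD and 1.1403 (0.825 to 1.54) in HFD, and the other cells had 3.94 and 2.81. RNA free in the droplets, estimated from the other cells, amounted to 0.105% and 0.159% of the Iglv1 UMIs of plasma cell-like cells. The gene 2010309G21Rik spans Iglv1 on the opposite strand and had 7 and 42 UMIs in the Igkc-only cells, where Iglv1 had 5661 and 17695. In B-like cells 2010309G21Rik had 84 and 57 UMIs, more than the 42 and 43 of Iglv1. What Iglv1 UMIs in cells with Igkc alone stand for was not tested, and Iglv1 is therefore not read below as a sign of a lambda light chain.

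The other Iglv genes were scarcer. Iglv2 had 31 LFD and 66 HFD UMIs in plasma cell-like cells, of which 15 and 17 lay in the 21 and 43 cells with a lambda constant alone. Its mean there was 0.714 and 0.395 UMIs per cell, against 0.0172 and 0.0274 in Igkc-only cells, the reverse order of Iglv1. Iglv3 had 132 and 553 UMIs, of which 123 and 362 were in Igkc-only cells. Igkc-only cells were 90.2% and 63.0% of the plasma cell-like cells.

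The Igkv genes alone, with a leading gene at 50% of 3 or more Igkv UMIs, gave a second view of the same cells. This limit was chosen after the data had been seen. Igkv14-126 led 159 of 283 such cells in LFD (56.2%, interval 50.2 to 62.0) and 866 of 1116 in HFD (77.6%, 75.04 to 80.01), a difference of 21.4 percentage points (15.01 to 27.9). Igkv4-91 led 21 cells in LFD (7.42%, 4.65 to 11.1) and 116 in HFD (10.4%, 8.67 to 12.3), and these intervals overlap. Behind them no Igkv gene led more than 8 LFD or 12 HFD cells. In LFD these were led by Igkv3-7 and Igkv4-58 with 8 cells each, then Igkv12-44, Igkv19-93 and Igkv4-57 with 6 each. In HFD Igkv12-89 and Igkv3-2 led 12 cells each and Igkv1-117 led 11.

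**Figure D2:**
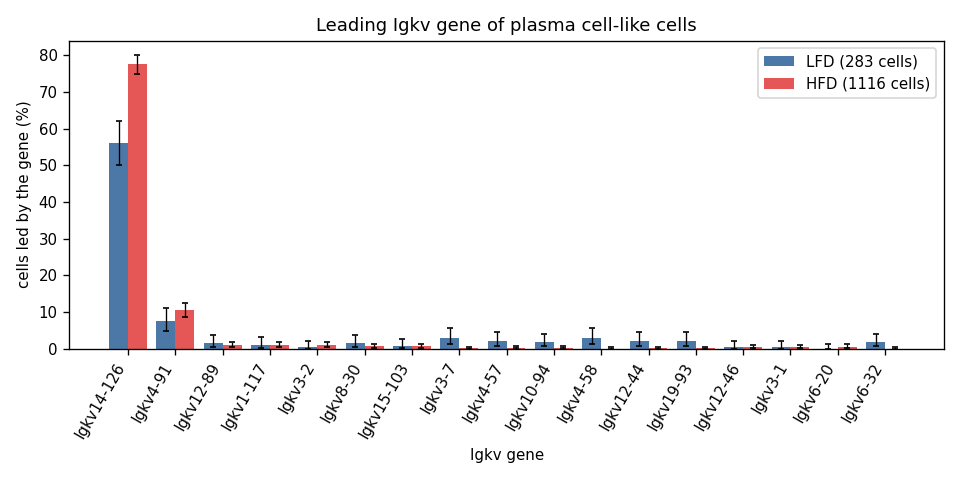
Share of plasma cell-like cells with a leading Igkv gene (283 LFD and 1116 HFD cells) that each Igkv gene led, in percent, for the 10 most frequent genes of either library. Error bars are exact 95% intervals for counting error, and Igkv14-126 stands at 56.2% in LFD and 77.6% in HFD while every gene after Igkv4-91 stays under 3% in both.

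Other genes known from B-1 cell antibodies were rare. Igkv7-33, the partner of Ighv7-1 in phosphorylcholine-binding antibodies, had 0 UMIs in plasma cell-like cells, which at a floor of 3 counts per library, used for every count of 0 here, allows a level of up to 0.411 CPM in LFD and 0.120 CPM in HFD. Igkv1-110 had 17 LFD and 12 HFD UMIs, Igkv4-55 had 8 and 6, and Igkv4-53 had 3 and 14.

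The heavy chain V genes, which the choice of members did not use, gave an independent readout. Among cells led by Igkv14-126 with a leading Ighv gene at 50% of 2 or more Ighv UMIs, Ighv11-2 led 69 of 70 cells in LFD (98.6%, interval 92.3 to 99.96) and 478 of 493 in HFD (97.0%, 95.03 to 98.3). Among Igkc-only cells led by an Igkv gene other than Igkv14-126 and Igkv4-91, it led 2 of 26 LFD cells (7.69%, 0.946 to 25.1) and 8 of 37 HFD cells (21.6%, 9.83 to 38.2). Ighv12-3 led 6 of 17 HFD Igkc-only cells with Igkv4-91 (35.3%, 14.2 to 61.7) and 0 of the 273 with Igkv14-126. Of the 4 HFD cells with both constants and Igkv4-91 it led 0, and Ighv11-2 led 3. In LFD only 2 cells with Igkv4-91 could be read this way, and Ighv12-3 led 1 of them. Over all 21 HFD cells with Igkv4-91 and a leading Ighv gene, the most frequent was Ighv1-26, in 8 cells (38.1%, 18.1 to 61.6).

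Diversity of the leading genes was lower in HFD once Iglv1 was set aside. With all V genes, the chance that 2 assigned plasma cell-like cells share their leading gene was 69.6% in LFD and 74.1% in HFD and 15 and 20 genes led at least 1 cell. At a common number of 125 cells the expected number of leading genes was 8.97 in LFD and 5.36 in HFD, so the order of the raw numbers reversed. With Igkv genes alone the pair sharing was 32.4% in LFD and 61.3% in HFD. The 283 LFD cells were led by 37 Igkv genes and the 1116 HFD cells by 49, while at 128 cells the expected numbers were 27.6 and 14.2. The effective number of Igkv genes, the exponential of the Shannon entropy, was 8.20 in LFD and 3.02 in HFD.

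Shares of leading genes by cycling state depended on which V genes were read. Cells with at least 6 of 12 cell cycle markers such as Mki67 and Top2a, called cycling, were 240 of 451 LFD and 604 of 1508 HFD plasma cell-like cells. With all V genes, in HFD Iglv1 led 80.4% of assigned cycling cells (interval 76.2 to 84.1, 408 cells) and 88.6% of non-cycling cells (85.9 to 90.95, 650 cells), and Igkv14-126 led 14.7% (11.4 to 18.5) and 7.85% (5.90 to 10.2), intervals that do not overlap between states. In LFD Iglv1 led 81.0% and 84.8%, and Igkv14-126 12.0% (7.13 to 18.5) and 9.60% (5.06 to 16.2), with overlapping intervals. With Igkv genes alone, Igkv14-126 led 58.1% of cycling (interval 49.9 to 65.9, 155 cells) and 53.9% of non-cycling cells (44.9 to 62.8, 128 cells) in LFD. In HFD it led 78.2% of cycling (74.2 to 81.9, 464 cells) and 77.1% of non-cycling cells (73.7 to 80.3, 652 cells). With Igkv genes alone the intervals of the 2 states overlap in each library, and those of the 2 libraries do not in either state, whereas with all V genes those of the libraries overlap for Igkv14-126. Both states of a library came from the same pooled mice, so they are not separate comparisons of the libraries. Pair sharing of Igkv genes was 34.3% in cycling and 30.1% in non-cycling LFD cells, and 61.9% and 61.0% in HFD. As a level, Iglv1 was lower in cycling than in non-cycling cells, at 651 against 1126 CPM in LFD and 668 against 1479 CPM in HFD. CPM is taken over all UMIs, of which cycling cells had more (median 18144.5 against 11077 in LFD and 19341 against 12285 in HFD). Per Igkc-only cell the LFD means were 13.4 and 14.5 Iglv1 UMIs with medians of 8 in both states, while the HFD means were 13.7 and 21.7 with medians of 8 and 12.

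The summed counts of each gene were compared between libraries as an HFD to LFD ratio of CPM. Of 22 members with at least 50 counts over both libraries, 10 lay past a 2-fold ratio, 2 higher and 8 lower in HFD, against 4.77% of all 10839 genes tested in plasma cell-like cells (0.987% higher and 3.78% lower). At a minimum of 200 counts 1 of 6 members, Igkv4-91, lay past 2-fold and none was lower. The median log2 ratio was -0.35 over these 22 members and -0.15 over all genes. For Igkv4-91 the level was 18.2 CPM in LFD and more, 39.5 CPM, in HFD (ratio 2.166, interval 1.81 to 2.62). Igkv6-20 stood at 0.822 and 1.76 CPM, with a ratio of 2.14 whose interval, 0.910 to 6.15, includes 1. Igkv14-126 went from 151 to 258 CPM (1.70, 1.60 to 1.81) and Iglv1 from 818 to 1073 CPM (1.31, 1.27 to 1.35), both short of 2-fold. Of the 22, Igkv6-32 was lowest in HFD, at 6.03 against 0.240 CPM (0.0398, 0.0139 to 0.0939), followed by Igkv3-7 at 7.67 against 0.480 CPM (0.0626, 0.0306 to 0.118). Igkv6-32 lay exactly at the minimum of 50 counts and reached it mainly through its LFD counts. Igkv4-58, 1 count short of the minimum, had 49 UMIs in 14 LFD cells (6.71 CPM) and 0 in HFD, which allows up to 0.120 CPM. Also under the minimum, Igkv18-36 had 0 LFD UMIs and 43 in 9 HFD cells, and Igkv14-100 had 2 LFD UMIs and 45 in HFD, all 45 in 1 cell. These last genes were named after their values were seen. The remaining genes below a ratio of 0.5 were Igkv12-44, Igkv19-93, Igkv4-57, Igkv10-96, Igkv10-94 and Igkv17-127. These ratios rest on few cells and a single cell can weigh heavily: the 44 LFD UMIs of Igkv6-32 came from 8 cells, 17 of them from 1 cell, and its 6 HFD UMIs came from 1 cell. The Poisson intervals treat UMIs as independent and do not cover this.

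**Figure D3:**
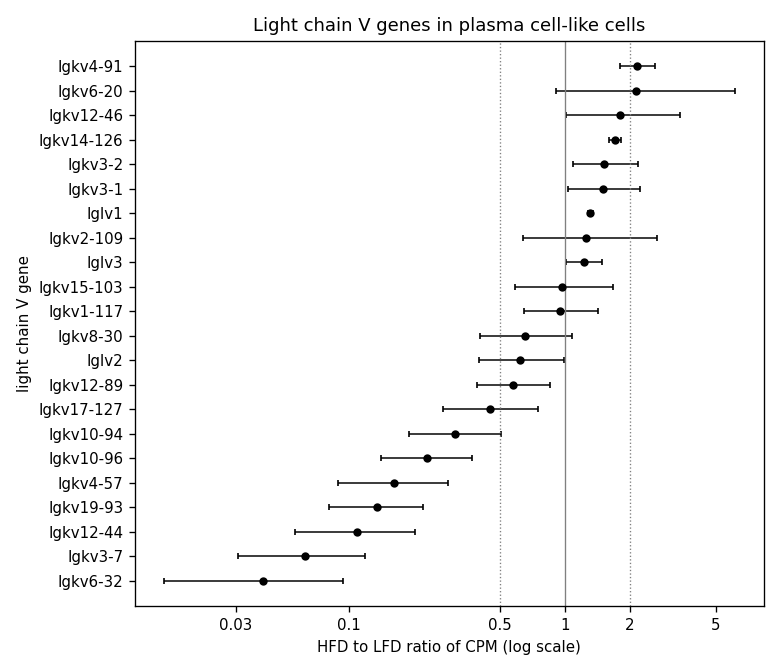
HFD to LFD ratio of CPM in plasma cell-like cells (log scale) for the 22 light chain V genes with at least 50 counts over both libraries, with exact 95% intervals for counting error. Dotted lines mark ratios of 0.5 and 2, and Igkv4-91 at 2.166 and Igkv6-32 at 0.0398 are the ends of the range.

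A second V gene, with at least 20% of a cell's light chain V UMIs, was found in 143 of 267 assigned LFD cells (53.6%, interval 47.4 to 59.7) and in 570 of 1058 HFD cells (53.9%, 50.8 to 56.9). The difference between libraries was 0.317 percentage points (-6.51 to 7.20). Nearly all of these cells, 142 and 562, paired an Iglv with an Igkv gene, and only 1 and 6 held a pair of Igkv genes. Igkv14-126 with Iglv1 was the most frequent pair, in 86 LFD and 455 HFD cells, followed by Igkv4-91 with Iglv1 in 6 and 57. Most of these mixed cells lacked a lambda constant gene at 100 UMIs: 135 of the 142 LFD cells and 327 of the 562 HFD cells held Igkc alone. Cycling cells had a second V gene more often, 59.9% (51.3 to 68.0) against 46.4% (37.4 to 55.5) of non-cycling cells in LFD and 66.9% (62.1 to 71.5) against 45.7% (41.8 to 49.6) in HFD. With Iglv1 left out, an alternative added after seeing the data, the difference in HFD turned from 21.2 to -7.87 percentage points (-16.5 to 1.25). In LFD the difference was 13.5 percentage points (0.945 to 25.6), and its interval included 0 under several alternatives, among them a minimum of 5 V UMIs (7.03, -3.63 to 17.5) and a stricter limit on cycling markers (8.72, -3.99 to 21.05). Of LFD plasma cell-like cells, 27.5% of cycling and 12.3% of non-cycling cells were scored as doublets by Scrublet, a doublet caller whose highest 922 LFD and 658 HFD scores were taken (0.8% per 1000 barcodes; its automatic limit marked 349 and 333), and at least 50% of the ASPC markers were found in 57.1% and 33.2%; without droplets scored as doublets the difference was 16.7 (2.81 to 29.9), and without cells carrying ASPC or mesothelial markers 11.3 (-6.41 to 28.1).

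Cells with 2 Igkv genes were fewer. Among cells with at least 5 Igkv UMIs, a second Igkv gene held at least 20% in 44 of 194 LFD cells (22.7%, interval 17.0 to 29.2) and 101 of 814 HFD cells (12.4%, 10.2 to 14.9). In a cell with 5 Igkv UMIs a single UMI of another Igkv gene reaches this share. By cycling state it was 27.4% of cycling (19.5 to 36.4) and 15.6% of non-cycling cells (8.32 to 25.6) in LFD, and 12.7% and 12.2% in HFD. The most frequent pairs were Igkv14-126 with Igkv19-93 in LFD (6 cells) and Igkv14-126 with Igkv3-2 in HFD (11 cells), and Igkv1-117 with Igkv4-91 came next in HFD (8 cells). In 18 of the 44 and 63 of the 101 cells 1 of the genes was Igkv14-126, and 4 and 7 pairs were of 1 subgroup. A second Ighv gene was found in 8 of 20 HFD cells with a second Igkv gene and at least 4 Ighv UMIs (40.0%, 19.1 to 63.9), against 3 of 184 HFD cells without one (1.63%, 0.338 to 4.69). Over all 101 and 713 HFD cells with and without a second Igkv gene the median depth was 17756 and 16183 UMIs, and 13.9% (7.79 to 22.2) and 9.68% (7.61 to 12.1) were scored as doublets. In LFD the median depth was 20675.5 UMIs in the 44 cells with a second Igkv gene and 16299 UMIs in the 150 without one. Of these, 20.5% and 18.0% were scored as doublets. In LFD only 3 cells with a second Igkv gene had 4 Ighv UMIs, and none of them had a second Ighv gene.

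The constant genes were read on their own as another measure of cells with both kinds of light chain RNA. Igkc and a lambda constant gene both reached 100 UMIs in 23 of 451 LFD plasma cell-like cells (5.10%, interval 3.26 to 7.55) and in 510 of 1508 HFD cells (33.8%, 31.4 to 36.3), a difference of 28.7 percentage points (25.3 to 31.8). Like the other intervals for shares of cells, these treat cells as independent. Whether these cells descend from shared clones, or mostly from a single pooled mouse, was not tested. In HFD the lambda constant was Iglc1 alone in 481 of the 510 cells, with a median of 1016 Iglc1 UMIs beside 3199.5 Igkc UMIs per cell. In HFD few cells lay between low and high Iglc1 counts: of 1460 HFD cells with Igkc, 952 held under 50 Iglc1 UMIs, 475 held 200 or more and the 33 others lay between. In LFD 408 of 430 cells held under 50, 9 held 200 or more and 13 lay between.

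**Figure D4:**
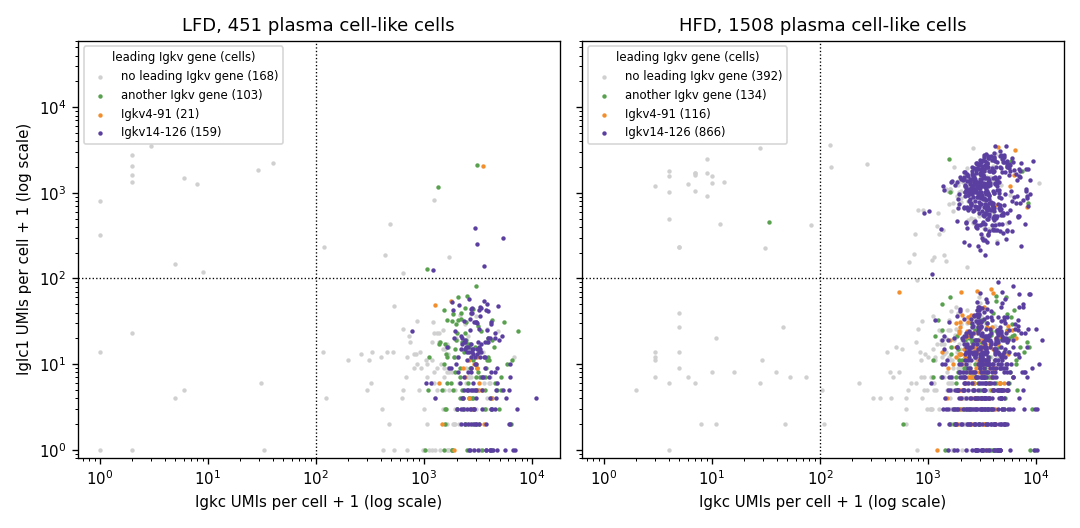
Igkc against Iglc1 UMIs + 1 per plasma cell-like cell (both axes log scale) in LFD and HFD, each point a cell coloured by its leading Igkv gene, with dotted lines at 100. The upper right of the HFD panel holds a separate group of cells with both constant genes, nearly all of those with a leading Igkv gene led by Igkv14-126.

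Among kappa V genes these cells held mainly Igkv14-126. Igkv14-126 made up 2884 of the 3166 Igkv UMIs of the HFD cells with both constants (91.1%), against 3553 of 5854 in HFD cells with Igkc alone (60.7%). Of the HFD cells led by Igkv14-126, 385 of 866 held both constants (44.5%, interval 41.1 to 47.8), against 9 of 159 in LFD (5.66%, 2.62 to 10.5) and 8 of the 116 HFD cells led by Igkv4-91 (6.90%, 3.02 to 13.1). Ighv11-2 led 214 of the 220 HFD cells with both constants, Igkv14-126 and a leading Ighv gene (97.3%, 94.2 to 98.99), and 264 of 273 such cells with Igkc alone (96.7%, 93.8 to 98.5). Iglv1 was found with and without Iglc1: in HFD the mean was 17.5 UMIs per cell (median 12) with both constants and 18.6 (median 11) with Igkc alone, and 97.6% and 93.7% of cells had at least 1. In cycling HFD cells the means were 15.2 and 13.7 UMIs and in non-cycling cells 19.3 and 21.7. Igkv UMIs per 1000 Igkc UMIs stood at 1.80 with both constants and 1.89 with Igkc alone.

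Values that bear on droplets with more than 1 cell were taken beside this result, whose cause was not tested further. The median depth was 15926 UMIs with both constants and 13850 with Igkc alone, and Scrublet scored 10.8% (interval 8.23 to 13.8) and 10.1% (8.26 to 12.2) of them as doublets. A second Ighv gene was found in 7 of 112 cells with both constants (6.25%, 2.55 to 12.5) and in 4 of 146 with Igkc alone (2.74%, 0.751 to 6.87). Scrublet scores droplets that mix unlike cells, so a droplet with more than 1 plasma cell-like cell can go unscored. A second Ighv gene cannot show such a droplet where its cells share Ighv11-2. That gene led 97.3% of HFD cells with both constants, Igkv14-126 and a leading Ighv gene. Whether droplets of this kind gave both constants was not tested. In LFD 7 of the 23 cells with both constants (30.4%, 13.2 to 52.9) and 19.4% of those with Igkc alone were scored as doublets. Free RNA from the other cells amounted to 0.224% of the Iglc1 UMIs of HFD plasma cell-like cells. Without droplets scored as doublets, which can leave in droplets of plasma cell-like cells alone, both constants were found in 33.7% of HFD and 4.46% of LFD cells. At least 50% of the ASPC markers were found in 20.98% of HFD cells with both constants and 17.9% with Igkc alone, and without cells that carry 50% of the ASPC or mesothelial markers both constants were found in 33.1% and 4.10%. Both constants were found in 36.4% of cycling (32.6 to 40.4) and 32.1% of non-cycling HFD cells (29.0 to 35.2), a difference of 4.34 percentage points whose interval, -0.629 to 9.35, includes 0.

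**Figure D5:**
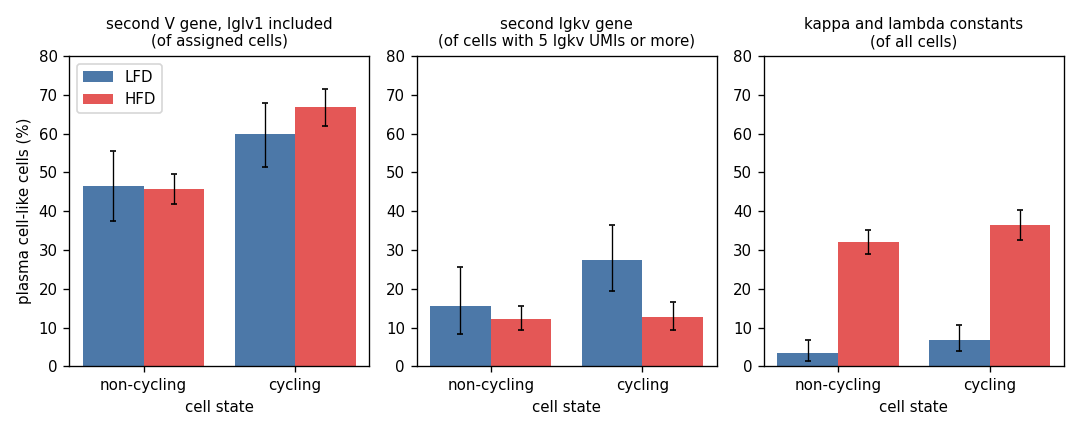
Share of plasma cell-like cells, in percent, with a second light chain V gene (of assigned cells), with a second Igkv gene (of cells with at least 5 Igkv UMIs) and with both kappa and lambda constant genes (of all cells), by cycling state and library. Bars carry exact 95% intervals for counting error, and in the last panel LFD stays at 3.32% and 6.67% where HFD reaches 32.1% and 36.4%.

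In B-like cells the V genes could not be assigned at the same depth. The median cell had 0 light chain V UMIs, and 1 LFD and 1 HFD cell met the limits for a leading gene, which is 0.0779% (interval 0.00197 to 0.433) and 0.111% (0.00281 to 0.618). At least 1 light chain V UMI was seen in 165 of 1284 LFD cells (12.9%, 11.1 to 14.8) and 124 of 900 HFD cells (13.8%, 11.6 to 16.2). Free RNA at the level of the other cells would give 9.69 of the 201 LFD and 19.0 of the 156 HFD UMIs. Among B-like cells with a V UMI and no tie, Iglv1 led 32 of 157 in LFD and 30 of 117 in HFD. It was followed in LFD by Igkv14-111 with 12 cells and by Igkv1-110, Igkv14-126 and Iglv3 with 10 each, and in HFD by Igkv14-126 with 15, Igkv1-110 and Igkv14-111 with 8 each and Igkv4-91 and Iglv3 with 6 each.

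With a minimum of 1 UMI and no tie, the B-like cells spread over more leading genes than the plasma cell-like cells, though at far fewer V UMIs per cell. Pair sharing was 6.51% in LFD and 9.46% in HFD B-like cells, against 53.9% and 64.0% in plasma cell-like cells. Among cells led by an Igkv gene it was 4.10% and 5.93% in B-like and 24.9% and 48.5% in plasma cell-like cells. At 117 cells the expected number of leading genes was 39.4 and 38.0 in B-like cells, against 14.3 and 7.37 in plasma cell-like cells. Igkv14-126 had 10 LFD and 27 HFD UMIs in B-like cells, of which free RNA would give 1.45 and 6.98. Only Iglv1 reached 50 counts over both libraries in B-like cells, at 5.64 and 7.70 CPM (ratio 1.37, interval 0.871 to 2.14), so 0 of 1 member lay past 2-fold, where 2.99% of all 10244 genes did (1.6% higher and 1.39% lower in HFD). Both constants were present in 1 LFD and 2 HFD B-like cells. By cycling state, a V UMI was seen in 15.8% of cycling and 12.3% of non-cycling B-like cells in LFD (215 and 1069 cells) and in 15.4% and 13.6% in HFD (104 and 796 cells), with median depths of 7845 and 3951 UMIs in LFD and 9395.5 and 4194.5 in HFD.

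Genes of V gene rearrangement and of the surrogate light chain of developing B cells were read beside the V genes. Rag1 and Rag2, the recombinase, and Igll1 of the surrogate light chain had 0 UMIs in plasma cell-like and B-like cells of both libraries, which allows up to 0.411 and 0.120 CPM in plasma cell-like cells and 0.403 and 0.537 CPM in B-like cells of LFD and HFD. Vpreb1 had 7 UMIs in each LFD class and 8 and 4 UMIs in HFD plasma cell-like and B-like cells, and Vpreb2 had 4 UMIs in LFD B-like cells and none elsewhere. Vpreb3, which mature B cells also express, stood at 98.9 and 70.0 CPM in B-like cells and at 2.46 and 2.00 CPM in plasma cell-like cells.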

How the data were processed

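Each of the 2 libraries (10x Single Cell 3′ v3, 1 per diet) was deposited by the authors as a matrix of raw UMI counts per gene and barcode. The counts had been made with Cell Ranger 4.0.0 on mm10, per the labels. The submitters' processing notes also name STAR, bcl2fastq 2.17.1.14 and Seurat 4.1.0. The gene annotation is not given in the sources used here. Names, coordinates and sequences came from GENCODE M21, in which all 163 member IDs were found. The libraries held 114311020 UMIs in 11281 barcodes (LFD) and 119498750 in 9631 (HFD). The study's limits on UMIs and mitochondrial share were applied; 2 LFD and 8 HFD cells under the study's minimum of 100 genes were kept.

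The study excluded doublets by a method not given in the sources used here; none were removed here in the main analysis. Classes were cut by counts of marker genes without immunoglobulin genes. The members, limits and lists were chosen with earlier results of these data known. Named genes were the 10 that led most cells per class and library, those past 2-fold (added to the planned rule), all Iglv genes, genes known from B-1 antibodies and the most frequent pairs. Only 3 genes led at least 20 assigned cells, so all 3 stand in place of the 5 highest and 5 lowest ratios of led cells.

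Shares carry exact Clopper-Pearson intervals, counts exact Poisson intervals, ratios exact conditional binomial intervals, and differences of shares intervals combined from the exact ones, all at 95% and for counting error only. No p-value was computed. Calls were checked on simulated data. Alternatives covered the limits on V UMIs, the lead share and the second share, thinning, free RNA, Scrublet doublets, clusters, V subgroups and a stricter filter on cells (1000 to 30000 UMIs, under 7.5% mitochondrial). Analyses ran in Python 3.11.15 with numpy 2.4.6, scipy 1.17.1, pandas 2.3.3 and scanpy 1.11.5.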

Additional observations from a re-analysis of the deposited data

How the results depend on the processing

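The HFD minus LFD differences in Igkv14-126-led cells, with Igkv genes read alone, and in cells with both constants stayed within their counting intervals under each alternative that could change them. Many could not: the limits on all V UMIs and the second share, V subgroups, thinning, free RNA and leaving out Iglv1 entered neither result. The limit of 3 Igkv UMIs was not varied. Over all summary results, 117 values that an alternative changed stayed within their counting intervals, 10 moved and 1 reversed. Among values of a single library or state 175 stayed, 71 moved and 1 reversed, mostly where a limit on V UMIs, the lead or the second share was changed. With a leading gene at 80% of V UMIs the HFD minus LFD difference in assigned cells was 4.22 percentage points and the cycling minus non-cycling difference in second V genes in HFD was 3.98. With a second gene at 10% the latter was 12.9. With Iglv1 left out the difference in assigned cells was 4.24, that in pair sharing 20.8 and the cycling difference in HFD -7.87. At 50 constant UMIs of each kind the cycling minus non-cycling difference in both constants was -2.27 in LFD and -1.19 in HFD. The number of V genes past 2-fold was 1 of 6 at a minimum of 200 counts, 0 of 3 by assigned cells led and 0 of 2 by Igkv-led cells, where fewer genes were tested. Without droplets scored as doublets the cycling difference in both constants in HFD was 5.53 (0.2502 to 10.8), whose interval leaves out 0. At a common number of cells the HFD minus LFD difference in leading genes was -3.60, not 5. Alternatives on Iglv1, marker limits, constant limits and other classes' markers were chosen after seeing the data. At the main setting the HFD minus LFD differences in lambda-led cells, pair sharing and second V genes have intervals that include 0, and their sign changed between alternatives. For pair sharing that interval was -3.11 to 12.1, and the value of 20.8 with Iglv1 left out lay above it. Depth limits the V calls: 59.2% of LFD and 70.2% of HFD plasma cell-like cells and 1 B-like cell per library had an assigned leading gene. With 1 library per diet no replicate could be left out. No paired analysis was possible because each diet has 1 library.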
